A study of Mus musculus with 6 samples.

Results

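Surface mucous cells, also called pit cells, line the gastric surface and the pits that open onto it. The 10 genes described here, Muc5ac, Tff1, Gkn1, Gkn2, Psca, Vsig1, Dpcr1, Ctse, Capn8 and Anxa10, were chosen by name as genes of these cells, and each matched 1 of the 39179 rows of the expression table. They were measured by RNA sequencing of the mouse pylorus, where the stomach opens into the duodenum, in 2 groups of 3 libraries. The 3 Sox2 KO libraries came from mice with Rosa26CreER and Sox2 fl/fl alleles, in which tamoxifen activates a Cre recombinase expressed from a locus active in most cell types, so that deletion of Sox2 was not restricted to 1 cell type. The 3 Sox2 WT libraries came from mice with Rosa26WT and Sox2 fl/fl alleles, which carry the floxed gene without Cre. Mice of both groups were given tamoxifen when they were 8 weeks old and their stomachs were taken 2 weeks afterwards, all on a mixed C57BL/6 and 129 background. The series text states an age of 10 weeks and the age label of each library states 8 weeks. RNA came from epithelium and mesenchyme after the muscle layer had been pulled away. The labels do not state that each library is a separate mouse, so the tests measure the spread between libraries.

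The surface mucous layer is a gel built on the mucin MUC5AC. Pit cells secrete it together with the trefoil peptide TFF1 and the gastrokines, small BRICHOS-domain proteins, and the layer shields the epithelium from acid and enzymes. Mucous cells deeper in the pyloric glands make another mucin, MUC6, with the trefoil peptide TFF2. SOX2 is a transcription factor of the foregut endoderm and of gastric stem and progenitor cells. The comparison asks how the RNA of surface mucous cells differs between pylori with and without Sox2.

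The 250 bases before the start of transcription given by RefSeq were read from its promoter table for GRCm38.p6, which had an entry for 6 of the 10 genes (Dpcr1 under its current symbol, Mucl3). For Gkn1, Gkn2 and Anxa10 that start differs from the gene boundary printed further below, which is of GENCODE mouse release 21. Muc5ac, Tff1, Psca and Ctse were not matched. The neighbouring genes Gkn1 and Gkn2 are shown because their RNA moved together most closely across the libraries, and Vsig1 because its sequence holds the letters of a SOX core motif. Each line runs 5′ to 3′ on the strand of the gene, and capitals mark every match to 1 of 5 short motifs on either strand.
Gkn1 (chr6:87350916-87351165, minus strand): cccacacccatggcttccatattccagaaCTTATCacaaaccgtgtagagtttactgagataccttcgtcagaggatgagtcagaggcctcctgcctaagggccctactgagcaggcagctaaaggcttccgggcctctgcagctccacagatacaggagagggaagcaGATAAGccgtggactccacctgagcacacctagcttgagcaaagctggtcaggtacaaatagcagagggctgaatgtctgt
Gkn2 (chr6:87373115-87373364, plus strand): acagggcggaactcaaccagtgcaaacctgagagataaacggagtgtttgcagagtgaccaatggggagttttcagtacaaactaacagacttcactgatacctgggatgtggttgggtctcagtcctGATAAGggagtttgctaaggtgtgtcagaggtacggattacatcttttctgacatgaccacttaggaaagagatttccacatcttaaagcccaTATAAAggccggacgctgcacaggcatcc
Vsig1 (chrX:140907358-140907607, plus strand): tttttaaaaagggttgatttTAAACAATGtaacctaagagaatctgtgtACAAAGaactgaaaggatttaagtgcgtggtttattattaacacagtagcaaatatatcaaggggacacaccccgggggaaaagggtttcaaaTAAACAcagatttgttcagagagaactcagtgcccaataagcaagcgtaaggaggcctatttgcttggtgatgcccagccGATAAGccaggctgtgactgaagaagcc
For SOX factors the letters searched were ACAATG and, as an alternative core, ACAAAG. For GATA factors they were GATAAG, for forkhead factors TGTTTA and for the TATA box TATAAA. The motif of GATA factors was in 3 of the 6 promoters, Gkn1, Gkn2 and Vsig1, and in 6.55% of all 32851 RefSeq mouse promoter windows of that length. Counting back from the start, with the last base before it at -1, its matches in Gkn1 began at -221, on the opposite strand, and at -81. They began at -122 in Gkn2 and at -28 in Vsig1. ACAATG was in 2 of the 6, Vsig1 and Capn8, against 10.7% of all promoters. ACAAAG was in 1 of the 6, Vsig1, against 16.5%. TGTTTA was in 2 of the 6, Vsig1 and Capn8, against 12.0%, and in Vsig1 1 of its 2 matches shares 3 bases with ACAATG. The TATA box letters were in 2 of the 6, Gkn2 and Anxa10, against 12.4%, beginning at -29 and -32. These are matches of letters and do not show that a factor binds.

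Expression is given as RPKM, reads scaled to gene length and library depth, as the authors deposited it. The depth used in that scaling, which was recovered from the RPKM and for which no source states what it counts, was between 29068051 and 33919303 reads in the Sox2 KO libraries and between 24141183 and 28032645 reads in the Sox2 WT libraries. Between 20180 and 20550 genes were above 0 in a library. Sox2 had 0.342, 0.210 and 0.420 RPKM in replicates 1 to 3 of Sox2 KO, against 11.1, 9.03 and 10.9 RPKM in replicates 1 to 3 of Sox2 WT. All Sox2 KO values lay far below all Sox2 WT values, and the limma log2 fold change was -3.72 (SE 0.147, adjusted p = 2.9e-04), so the targeted gene followed the labels. By Xist and Ddx3y, the 3 Sox2 KO libraries and Sox2 WT replicate 1 were male, and Sox2 WT replicates 2 and 3 were female. Sex therefore differed along with genotype. The epithelial genes Krt8, Krt18, Krt19 and Cdh1 were between 246 and 2918 RPKM in every library, and the 10 surface mucous genes were between 18.7 and 61772 RPKM. RNA of gastric surface epithelium was thus present, but these genes do not check which region of the stomach was taken.

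Loss of Sox2 RNA was not accompanied by a detectable shift of the surface mucous genes. 0 of the 10 passed the threshold of an adjusted p under 0.05 (limma on log2(RPKM + 0.5), adjusted over 14045 genes), where 4 genes, or 0.0285% of those tested, did. Also 0 of the 10 had an unadjusted p under 0.05, against 3.15% of all genes. In 0 of the 10 did the Sox2 KO and Sox2 WT libraries separate, against 4.09% of all genes with every Sox2 KO value above every Sox2 WT value and 2.99% with every one below. The median log2 fold change of the 10 was 0.14, with 8 positive and 2 negative values, beside a median of 0.02 over all genes, where 7980 were positive and 6065 negative. With sex as a covariate, and so in effect against Sox2 WT replicate 1 alone, the median of the 10 was 0.38 with 9 positive values, that of all genes was 0.05, and again 0 of the 10 passed. The adjusted p was 0.9995 for each of the 10. With 3 libraries against 3, an exact two-sided permutation test cannot go below p = 0.10, and for the 10 genes it gave between 0.5 and 1. These are bulk tissue values, in which fewer pit cells and less RNA per pit cell cannot be told apart.

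**Figure D1:**
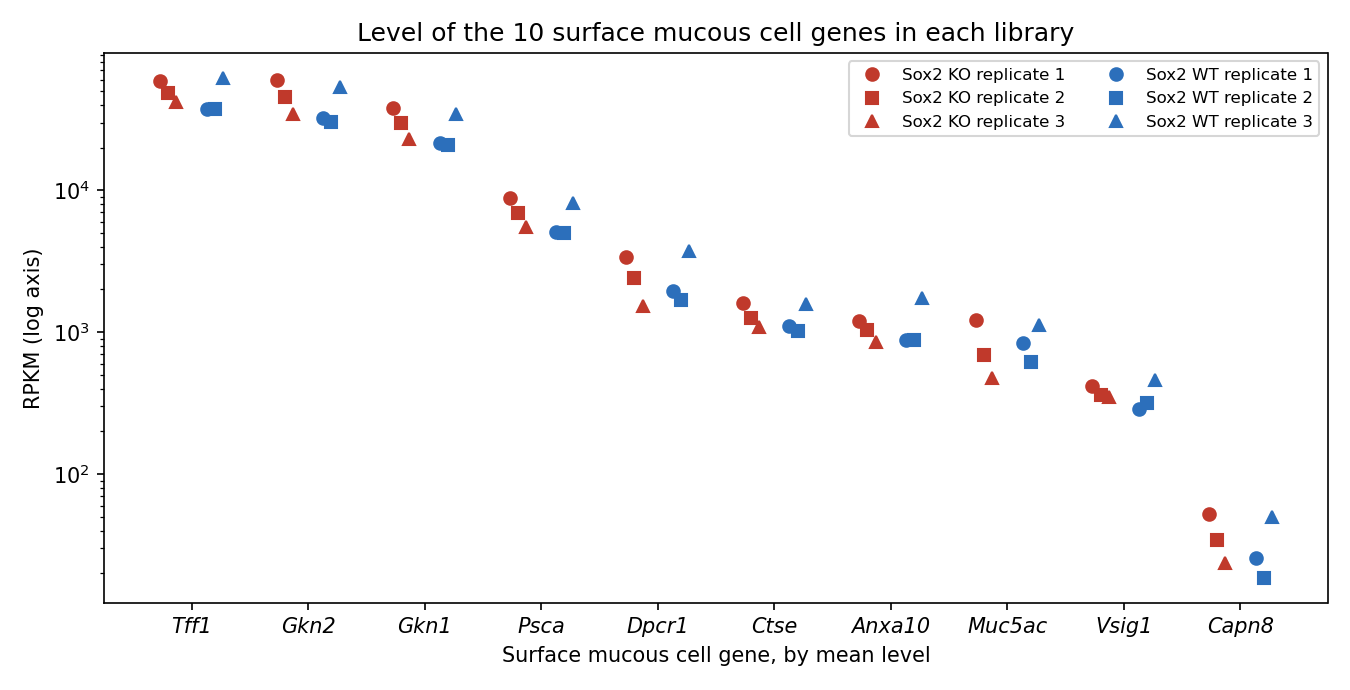
RPKM of the 10 surface mucous cell genes on a log axis, with 3 Sox2 KO libraries (red, left) and 3 Sox2 WT libraries (blue, right) per gene; each point is 1 library. The colours overlap for every gene, and Sox2 KO replicate 1 and Sox2 WT replicate 3 are the highest points of each.

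Among the secreted products, Muc5ac encodes the gel-forming mucin of the surface and lies on chromosome 7 from 141788972 to 141819231 on the plus strand (all positions are of GRCm38, which is mm10, in GENCODE mouse release 21). It had 1215, 687 and 479 RPKM in replicates 1 to 3 of Sox2 KO, against 845, 613 and 1127 RPKM in replicates 1 to 3 of Sox2 WT. Sox2 KO libraries held both the highest and the lowest of the 6 values. The mean was 794 ± 379 RPKM in Sox2 KO and 862 ± 257 RPKM in Sox2 WT (SD, n = 3 each). Muc5ac had a log2 fold change of -0.18, with a 95% interval of -1.06 to 0.70.

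Tff1 encodes the trefoil peptide that is secreted with this mucin, and it had the highest mean RPKM of all tested genes. That place depends on the gene length used, recovered as 475 bases, against 700 in GENCODE mouse release 21. By reads recovered from the RPKM, Gkn1 lay above Tff1 in every library, as in Sox2 KO replicate 1 with 1379188 against 835442. Tff1 lies on chromosome 17 from 31161395 to 31165277 on the minus strand. It had 59033, 48165 and 42073 RPKM in replicates 1 to 3 of Sox2 KO, against 37579, 37094 and 61772 RPKM in replicates 1 to 3 of Sox2 WT. The highest value of Tff1 was in Sox2 WT replicate 3 and its lowest in Sox2 WT replicate 2, so the Sox2 KO range lay inside that of Sox2 WT. The log2 fold change was 0.16 (95% interval -1.23 to 1.55). An annotated antisense gene, Gm15318, overlaps Tff1, and the strandedness of the counting is not given in the sources used here.

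Gkn1 and Gkn2 encode gastrokines 1 and 2, secreted BRICHOS-domain proteins of the gastric surface, and lie close to each other on chromosome 6, Gkn1 from 87345650 to 87350942 on the minus strand and Gkn2 from 87373357 to 87379497 on the plus strand. Gkn1 had 38131, 29763 and 22930 RPKM in replicates 1 to 3 of Sox2 KO, against 21513, 20675 and 34578 RPKM in replicates 1 to 3 of Sox2 WT. Gkn2 had 59918, 45378 and 34637 RPKM in replicates 1 to 3 of Sox2 KO, against 32140, 30027 and 53103 RPKM in replicates 1 to 3 of Sox2 WT. Both had their 2 lowest values in Sox2 WT replicates 1 and 2, but Sox2 WT replicate 3 lay above 2 of the 3 Sox2 KO libraries. The log2 fold change was 0.25 for Gkn1 (95% interval -0.96 to 1.46) and 0.29 for Gkn2 (95% interval -1.09 to 1.68), and that of Gkn2 was the largest among the 10 genes. The intervals of Tff1 and of both gastrokines are wide partly through the variance trend that limma fits across genes. Without that trend, a setting added after the data were seen, the SE fell to 0.231 for Tff1, 0.257 for Gkn1 and 0.276 for Gkn2, against 0.594, 0.517 and 0.590 with it, and again 0 of the 10 genes passed.

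Among the proteins of the cell surface, Psca encodes a GPI-anchored protein of the LY6 family and lies on chromosome 15 from 74714839 to 74717069 on the plus strand. It had 8763, 6952 and 5514 RPKM in replicates 1 to 3 of Sox2 KO, against 5068, 4957 and 8142 RPKM in replicates 1 to 3 of Sox2 WT. The order of the 6 libraries was the same as for Gkn1 and Gkn2. Psca had a log2 fold change of 0.24 (95% interval -0.60 to 1.08).

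Vsig1 encodes a junctional protein of the immunoglobulin superfamily and lies on chromosome X from 140907608 to 140939472 on the plus strand. It had 420, 362 and 351 RPKM in replicates 1 to 3 of Sox2 KO, against 289, 315 and 459 RPKM in replicates 1 to 3 of Sox2 WT. The 3 Sox2 KO values lay between the extremes of Sox2 WT. The log2 fold change was 0.12 with the narrowest interval of the 10, -0.36 to 0.60, which corresponds to a Sox2 KO level between 0.778 and 1.51 times that of Sox2 WT. For this X-linked gene, a fit with sex as a covariate gave 0.38 (SE 0.278; limma adjusted p = 0.9992).

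Dpcr1 encodes a mucin-like membrane protein and lies on chromosome 17 from 35635752 to 35643695 on the minus strand. It had 3378, 2397 and 1527 RPKM in replicates 1 to 3 of Sox2 KO, against 1950, 1693 and 3724 RPKM in replicates 1 to 3 of Sox2 WT. Sox2 KO replicate 3 was the lowest of all 6 and Sox2 WT replicate 3 the highest. The group means were 2434 ± 926 RPKM in Sox2 KO and 2455 ± 1106 RPKM in Sox2 WT (SD, n = 3 each), with a 95% interval of the log2 fold change from -0.96 to 0.96. Sfta2 overlaps this gene on the other strand, so their reads may not be separated.

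The other 3 genes encode proteins inside the cell. Ctse encodes cathepsin E, an aspartic protease, on chromosome 1 from 131638306 to 131675505 on the plus strand. It had 1609, 1263 and 1083 RPKM in replicates 1 to 3 of Sox2 KO, against 1099, 1022 and 1591 RPKM in replicates 1 to 3 of Sox2 WT. The 2 groups covered nearly the same range. For Ctse the log2 fold change was 0.10 (95% interval -0.50 to 0.70).

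Capn8 encodes a calpain, a calcium-dependent protease, of the gastric surface epithelium, on chromosome 1 from 182565007 to 182632352 on the plus strand. It had 52.6, 34.6 and 23.5 RPKM in replicates 1 to 3 of Sox2 KO, against 25.8, 18.7 and 50.0 RPKM in replicates 1 to 3 of Sox2 WT. Relative to its level it varied most of the 10, with 2.82-fold between the lowest and the highest library. Its log2 fold change was 0.27 (95% interval -0.67 to 1.21).

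Anxa10 encodes an annexin, a family of calcium-dependent phospholipid-binding proteins, and lies on chromosome 8 from 62057042 to 62123150 on the minus strand. It had 1199, 1034 and 850 RPKM in replicates 1 to 3 of Sox2 KO, against 874, 879 and 1752 RPKM in replicates 1 to 3 of Sox2 WT. Sox2 WT replicate 3 stood apart above the other 5 libraries. The log2 fold change was -0.12 (95% interval -0.85 to 0.62). With sex as a covariate it was 0.22.

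**Figure D2:**
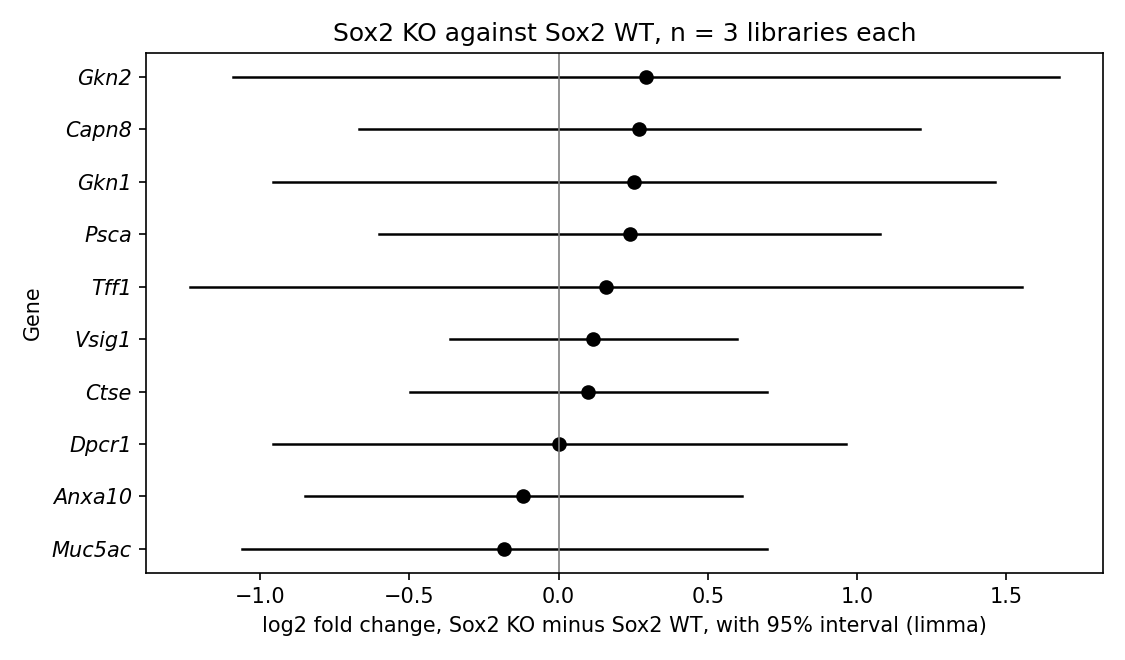
Log2 fold change of each surface mucous cell gene, Sox2 KO minus Sox2 WT, with its 95% limma interval (n = 3 libraries each). Every interval crosses 0, and the point estimates run from -0.18 for Muc5ac to 0.29 for Gkn2.

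Ordered by mean RPKM over the 6 libraries, a scale per length, Tff1 at 47619 RPKM and Gkn2 at 42534 RPKM led all tested genes. Gkn1 followed with 27932 RPKM. These 3 had overlapping ranges. Psca at 6566 RPKM was below Gkn1 in every library and above Dpcr1, at 2445 RPKM, in every library. Dpcr1, Ctse at 1278 RPKM and Anxa10 at 1098 RPKM each overlapped the next in the order, Muc5ac at 828 RPKM coming after Anxa10. Vsig1 at 366 RPKM lay below the range of Muc5ac, and Capn8 at 34.2 RPKM below that of Vsig1. The mucin gene thus ranked only eighth among the 10 by RPKM, which depends on the gene lengths used. Its RPKM was 2.06%, 1.43% and 1.14% of that of Tff1 in Sox2 KO replicates 1 to 3, against 2.25%, 1.65% and 1.82% in Sox2 WT replicates 1 to 3.

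The larger variation was between libraries of the same group. The within-group SD on the log2 scale was between 0.270 for Vsig1 and 0.647 for Capn8. Its median over the 10 genes was 0.407, beside 0.182 over all genes and 0.172 over the 5110 genes with a mean of at least 10 RPKM. Only 3.97% of all genes had a larger within-group SD than Muc5ac, 3.61% than Dpcr1 and 2.90% than Capn8. Vsig1 was the steadiest, with 24.6% of genes above it.

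The 10 genes varied together. Sox2 KO replicate 1 and Sox2 WT replicate 3 held the 2 highest values of every one of them, with Sox2 KO replicate 1 highest for 6 and Sox2 WT replicate 3 highest for 4. The lowest value was in Sox2 KO replicate 3 for 3 genes, in Sox2 WT replicate 2 for 6 and in Sox2 WT replicate 1 for 1. Averaged over the 10, the deviation from each gene's own mean was 0.45, 0.04 and -0.32 on the log2 scale in Sox2 KO replicates 1 to 3, against -0.26, -0.39 and 0.47 in Sox2 WT replicates 1 to 3. High and low libraries thus occurred in both groups. The female libraries, Sox2 WT replicates 2 and 3, held the lowest and the highest of these averages, so the libraries did not order by sex either.

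**Figure D3:**
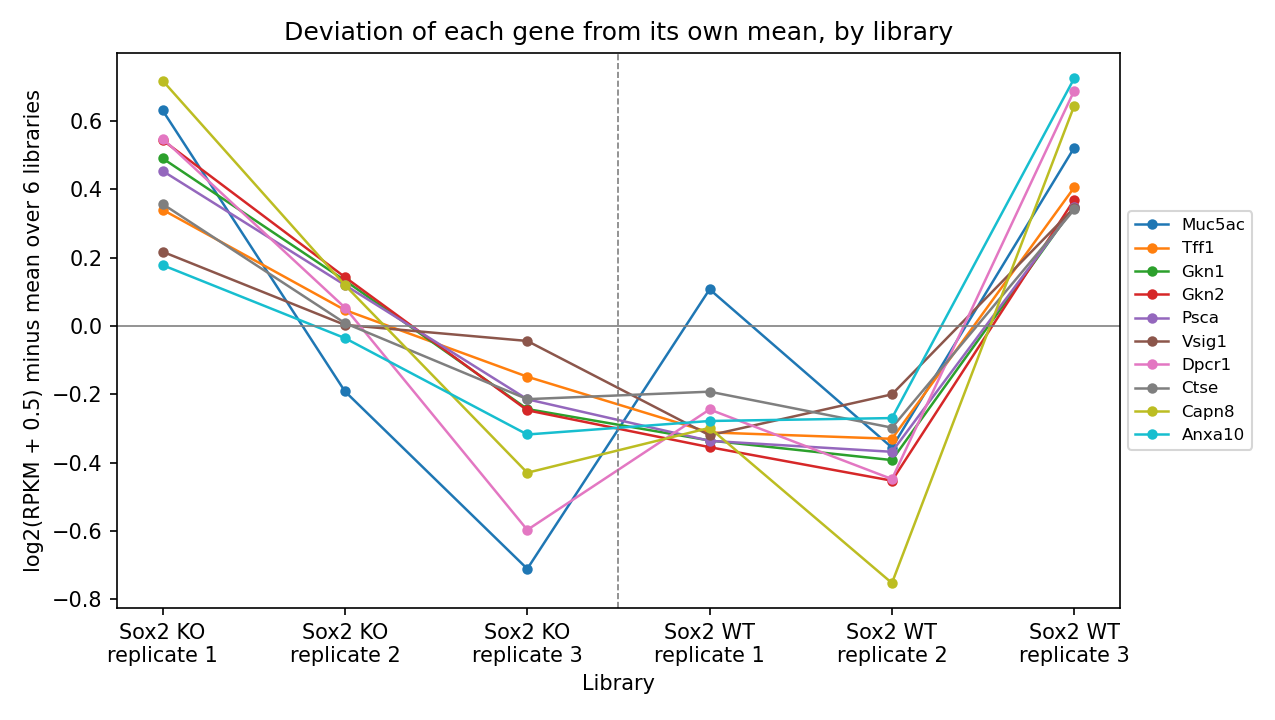
Deviation of each of the 10 genes from its own mean over 6 libraries, in log2(RPKM + 0.5), with the 3 Sox2 KO libraries left of the dashed line and the 3 Sox2 WT libraries right of it; each line is 1 gene. All 10 lines are above 0 in Sox2 KO replicate 1 and Sox2 WT replicate 3 and below 0 in Sox2 KO replicate 3 and Sox2 WT replicate 2. Muc5ac departs from the rest in Sox2 KO replicate 2 and Sox2 WT replicate 1.

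With the group means removed, Pearson's r over the 6 libraries was between 0.678 and 0.999 in the 45 pairs of genes, and above 0.9 in 38. Gkn1 and Gkn2 had the highest, 0.999, followed by Gkn1 and Psca with 0.999. Muc5ac and Vsig1 had the lowest, 0.678, followed by Muc5ac and Anxa10 with 0.748. These r are descriptions, since all pairs share the same 6 libraries and the same scaling of RPKM, and they lean on the 2 libraries that lie farthest from the median. When these 2 were left out, here and below, the group means stayed those of all 6 libraries. Against the mean of the 10 genes, r was 0.905 for Vsig1 and 0.215 without those 2 libraries. The likeness of Vsig1 to the others thus leans on them. For Anxa10 r was 0.951 and 0.796 without them, for Muc5ac 0.916 and 0.792, and for the other 7 genes it stayed at 0.887 or above. The ratio of Gkn1 to Gkn2 stayed between 0.636 and 0.689 in the 6 libraries while each of the pair varied by at least 1.84-fold.

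Set against the mean log2 level of the other 9 genes in the same library, which removes the shared variation, most of the 10 still overlapped between the groups. Gkn2 was at 0.11, 0.11 and 0.08 in Sox2 KO replicates 1 to 3, against -0.11, -0.07 and -0.12 in Sox2 WT replicates 1 to 3, both as deviations of this log2 ratio from its mean. Gkn1 was at 0.05, 0.10 and 0.08 in Sox2 KO replicates 1 to 3, against -0.09, -0.01 and -0.14 in Sox2 WT replicates 1 to 3. These 2 of the 10 did not overlap, both higher in Sox2 KO, by 0.20 and 0.15 on the log2 scale. Over all genes, 1.25% did not overlap in either direction when set against the mean of the 10. Without this scaling, 4.09% of all genes lay higher and 2.99% lower. The 1.25% is not a like background, since the scaling removes shared variation from the 10 and can add it to other genes. Each gastrokine gene was also among the 9 that set the mean for the other, and the difference was chosen after its values were seen. Muc5ac varied most in this measure, with 0.20, -0.26 and -0.44 in Sox2 KO replicates 1 to 3, against 0.40, 0.03 and 0.05 in Sox2 WT replicates 1 to 3. Its groups overlapped.

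The 10 genes made up a large part of the RNA. Whole reads were recovered from their RPKM, and they summed to 4675391, 3481781 and 3184422 reads in Sox2 KO replicates 1 to 3, against 2223785, 2415128 and 3811940 reads in Sox2 WT replicates 1 to 3. That was 15.7%, 12.0% and 9.39% of the reads to which RPKM were scaled in Sox2 KO replicates 1 to 3, against 9.21%, 8.62% and 14.9% in Sox2 WT replicates 1 to 3. As a share of all summed RPKM, which weights short transcripts more, it was 32.3%, 26.6% and 23.0% in Sox2 KO replicates 1 to 3, against 24.2%, 20.1% and 33.1% in Sox2 WT replicates 1 to 3. The mean share of reads was 12.4% ± 3.17 in Sox2 KO and 10.9% ± 3.49 in Sox2 WT (SD, n = 3 each), a difference smaller than either SD. Capn8, the lowest of the 10, still had at least 1927 reads in a library, so counting error is small beside the spread between libraries. A set of genes this large also lowers the RPKM of all other genes where it is high. With the reads of the 10 taken out of the scaling, their log2 fold changes ran from -0.16 to 0.32 and again 0 passed.

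The 8 genes whose group-centred levels were most like the mean of the 10, among genes of at least 10 RPKM outside the set, were Sh3rf2, Osbpl2, Macc1, Mettl7a1, Crk, Mal, Ywhab and 2510049J12Rik, with r between 0.996 and 0.999 over the 6 libraries and of 0.971 or more without the 2 farthest. Of the 5110 genes at that level, 6.26% had r above 0.95, a lower bar than the r of these 8. Likeness at that lower bar was thus shared widely. Mal, which encodes a membrane proteolipid of apical transport in epithelia, had the highest level of the 8. It had 534, 424 and 340 RPKM in replicates 1 to 3 of Sox2 KO, against 370, 325 and 581 RPKM in replicates 1 to 3 of Sox2 WT. Macc1, which encodes a regulator of the receptor gene Met, had 45.1, 35.8 and 30.6 RPKM in replicates 1 to 3 of Sox2 KO, against 30.8, 28.8 and 43.6 RPKM in replicates 1 to 3 of Sox2 WT. As in the 10, Sox2 KO replicate 1 and Sox2 WT replicate 3 were highest for both, which their choice by likeness to the 10 made likely. Sh3rf2, an SH3-domain protein gene, had 12.5, 10.4 and 8.93 RPKM in replicates 1 to 3 of Sox2 KO, against 10.1, 9.53 and 13.6 RPKM in replicates 1 to 3 of Sox2 WT. It was the closest of the 8, and its groups overlapped.

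A further 14 genes used as a pit cell list, among them transcription factors, enzymes and membrane proteins, gave a like picture. 13 were tested and 0 passed, 9 had positive and 4 negative log2 fold changes, and their median was 0.09. Cldn18, which encodes the gastric tight-junction protein claudin 18, had 426, 343 and 326 RPKM in replicates 1 to 3 of Sox2 KO, against 330, 311 and 439 RPKM in replicates 1 to 3 of Sox2 WT, and followed the 10 genes with r = 0.982, or 0.884 without the 2 farthest libraries. Krt20, a keratin of mature surface epithelium, had 407, 340 and 257 RPKM in replicates 1 to 3 of Sox2 KO, against 358, 191 and 682 RPKM in replicates 1 to 3 of Sox2 WT. Sult1c2, a sulfotransferase gene, had 419, 353 and 416 RPKM in replicates 1 to 3 of Sox2 KO, against 313, 370 and 347 RPKM in replicates 1 to 3 of Sox2 WT, and did not follow them (r = 0.031, and -0.898 without the 2 farthest libraries). The tetraspanin gene Tspan8 averaged 1038 ± 62.1 RPKM in Sox2 KO and 900 ± 159 RPKM in Sox2 WT (SD, n = 3 each), and its groups overlapped. Elf3 and Fut2 were the 2 of these 13 genes with all Sox2 KO values above all Sox2 WT values, against 4.09% of all genes, and Elf3 was named after its values were seen. Elf3, an epithelial ETS-family transcription factor gene, averaged 294 ± 27.9 RPKM in Sox2 KO and 229 ± 32.4 RPKM in Sox2 WT, with a log2 fold change of 0.36 (SE 0.156; limma adjusted p = 0.9995). Fut2, which encodes the fucosyltransferase that puts secretor-type sugars on surface mucin, had 128, 123 and 120 RPKM in replicates 1 to 3 of Sox2 KO, against 113, 96.4 and 105 RPKM in replicates 1 to 3 of Sox2 WT, with a log2 fold change of 0.23 (SE 0.113; limma adjusted p = 0.9995).

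Of 19 genes for the assembly and glycosylation of mucins, 17 were tested and 0 passed, with a median log2 fold change of 0.06. Agr2, a disulfide isomerase gene needed for mucin folding, had 647, 780 and 1129 RPKM in replicates 1 to 3 of Sox2 KO, against 1128, 850 and 1625 RPKM in replicates 1 to 3 of Sox2 WT. It was lowest in Sox2 KO replicate 1 and highest in Sox2 WT replicate 3, though the 10 surface genes were high in both. Its r with them was 0.147, and -0.221 without the 2 farthest libraries. Gcnt3, an O-glycan branching enzyme gene, averaged 277 ± 34.4 RPKM in Sox2 KO and 276 ± 46.4 RPKM in Sox2 WT (SD, n = 3 each). Fcgbp, which encodes a mucus protein also made by goblet cells, had 225, 180 and 63.3 RPKM in replicates 1 to 3 of Sox2 KO, against 85.1, 25.6 and 64.2 RPKM in replicates 1 to 3 of Sox2 WT. On the log2 scale it was 1.39 higher (SE 0.572), with a limma adjusted p of 0.9995, and the groups overlapped.

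By their sums, the gland mucous, parietal and chief cell genes moved differently between the same libraries. Summed over the 10, the surface mucous genes had 173718, 136035 and 109468 RPKM in replicates 1 to 3 of Sox2 KO, against 101383, 97293 and 166298 RPKM in replicates 1 to 3 of Sox2 WT. The 7 gland mucous genes, led by Pgc and Tff2, summed to 39657, 43025 and 39323 RPKM in replicates 1 to 3 of Sox2 KO, against 27512, 60570 and 26197 RPKM in replicates 1 to 3 of Sox2 WT. The ratio of the surface sum to the gland mucous sum was 4.38, 3.16 and 2.78 in Sox2 KO replicates 1 to 3, against 3.69, 1.61 and 6.35 in Sox2 WT replicates 1 to 3. The lowest and the highest of these ratios were both in Sox2 WT, but they rest on Pgc, a pepsinogen gene also expressed by chief cells, which made up between 44.1% and 81.0% of the gland mucous sum. Without Pgc, a choice made after the data were seen, the ratio was 15.2, 9.93 and 5.47 in Sox2 KO replicates 1 to 3, against 8.34, 8.44 and 11.3 in Sox2 WT replicates 1 to 3, and both extremes were in Sox2 KO. In Sox2 WT replicate 2, where Pgc was highest, Gkn3 was the lowest of the 6 and Tff2 the second-lowest. Muc6 was not low there, at 95.9 RPKM, with a range of 73.9 to 96.6 RPKM over the 6 libraries. The 11 parietal cell genes summed to 1944, 1965 and 1206 RPKM in replicates 1 to 3 of Sox2 KO, against 1255, 3337 and 924 RPKM in replicates 1 to 3 of Sox2 WT. The 5 chief cell genes in the table, mainly Chia, summed to 3861, 5568 and 2101 RPKM in replicates 1 to 3 of Sox2 KO, against 1191, 4159 and 511 RPKM in replicates 1 to 3 of Sox2 WT. By these sums, Sox2 WT replicate 3, where every surface gene was highest or second-highest, was the lowest library for parietal and chief cell genes, and Sox2 WT replicate 2 was among the highest. Single genes departed from this, as Ckmt1 of the parietal list was highest in Sox2 WT replicate 3 and Pga5 of the chief list was lowest in Sox2 KO replicate 2. Of the tested genes of these 3 lists, 7 gland mucous, 10 parietal and 4 chief, 0 passed, and their median log2 fold changes were 0.06, 0.17 and 0.45. Whether the share of each gland region in the excised tissue set the levels of the surface genes was not tested.

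**Figure D4:**
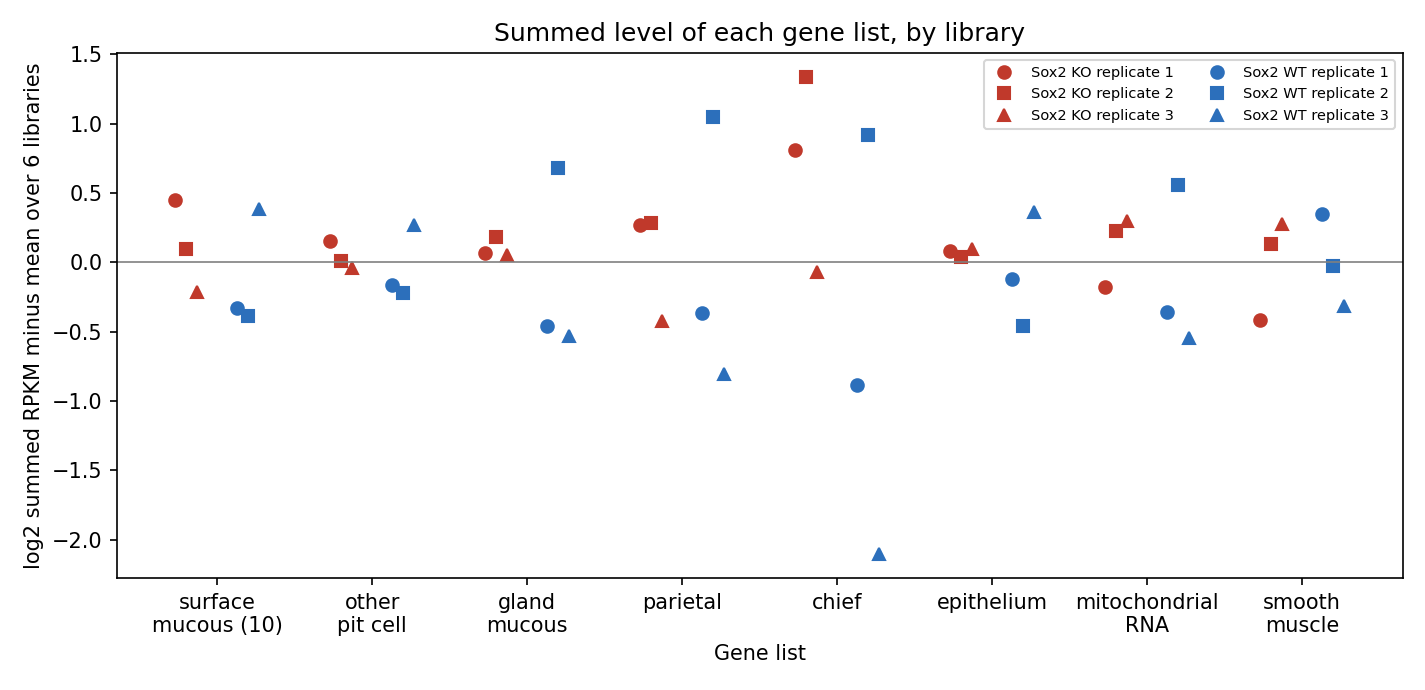
Summed RPKM of each gene list per library, as log2 deviation from the mean over the 6 libraries, with Sox2 KO (red) left of Sox2 WT (blue); each point is 1 library. In Sox2 WT replicate 2 the surface mucous sum, 97293 RPKM, is the lowest of the 6 and the parietal sum and the gland mucous sum, of which Pgc is 81.0% there, are the highest. Sox2 WT replicate 3 has the second-highest surface mucous sum, 166298 RPKM, and the lowest chief, parietal and gland mucous sums. Without Pgc, which is not drawn, its gland mucous sum was 14653 RPKM, the second-highest of the 6.

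The 5 general epithelial genes summed to 5136, 4974 and 5178 RPKM in replicates 1 to 3 of Sox2 KO, against 4449, 3533 and 6244 RPKM in replicates 1 to 3 of Sox2 WT. Relative to that sum, the surface genes were at 33.8, 27.3 and 21.1 in Sox2 KO replicates 1 to 3, against 22.8, 27.5 and 26.6 in Sox2 WT replicates 1 to 3. In this ratio the groups overlapped. In a fit relative to the mean log2 level of the 5 epithelial genes, 5 of the 10 log2 fold changes were positive, and 0 passed. The 37 mitochondrial genes summed to 23845, 31622 and 33224 RPKM in replicates 1 to 3 of Sox2 KO, against 21078, 39646 and 18514 RPKM in replicates 1 to 3 of Sox2 WT, lowest in Sox2 WT replicate 3 and, within Sox2 KO, in replicate 1, where the surface genes were high. 14 of the 37, some of them protein-coding, are listed at 0 in every library. The 6 smooth muscle genes summed to 416, 610 and 674 RPKM in replicates 1 to 3 of Sox2 KO, against 707, 544 and 446 RPKM in replicates 1 to 3 of Sox2 WT, again lowest in the same pair of libraries. The part of these differences in the surface gene levels was not tested.

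Markers of cells from outside the pyloric epithelium were also followed. Of 10 genes of the squamous forestomach, 2 were tested, and nearly all of their sum was Sprr1a, with 205, 161 and 61.1 RPKM in replicates 1 to 3 of Sox2 KO, against 92.7, 55.0 and 475 RPKM in replicates 1 to 3 of Sox2 WT. Sprr1a followed the surface genes (r = 0.961, and 0.969 without the 2 farthest libraries) while Krt13, a squamous keratin gene, was between 0.551 and 2.03 RPKM. The 5 pancreatic genes summed to at most 2.10 RPKM. The 6 fibroblast genes, with a median log2 fold change of 0.03, and the 6 immune genes, 4 of them tested with a median of 0.11, had 0 members past the threshold. The immune genes summed to 106, 100 and 62.4 RPKM in replicates 1 to 3 of Sox2 KO, against 84.6, 63.8 and 120 RPKM in replicates 1 to 3 of Sox2 WT. Like the surface genes, they were highest in Sox2 WT replicate 3 and Sox2 KO replicate 1. Their median r with the surface genes was 0.843, with 0.935 for Lyz2 but -0.437 for Cpa3. Of 11 enterocyte genes, 6 were tested, with a median of 0.10 and 0 passing. Their log2 fold changes ran from -1.10 to 1.18, and 2 of the 6 had an unadjusted limma p under 0.05, against 3.15% of all genes.

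Of the 14 lists beside the surface genes, the goblet cell genes had the largest median log2 fold change. Their sum was 4409, 4098 and 2536 RPKM in replicates 1 to 3 of Sox2 KO, against 738, 228 and 1146 RPKM in replicates 1 to 3 of Sox2 WT. All 4 tested goblet genes had Sox2 KO values above all Sox2 WT values, against 4.09% of all genes. Their median log2 fold change was 3.34. All 4 had an unadjusted limma p under 0.05, against 3.15% of all genes, though 0 passed over all genes. The limma adjusted p was 0.0577 for Itln1, 0.127 for Zg16, 0.420 for Spink4 and 0.838 for Clca3. The remaining gene, Muc2, which encodes the goblet cell mucin, was under the filter, with 0.333, 0.887 and 0.497 RPKM in replicates 1 to 3 of Sox2 KO, against 0.308, 0.301 and 0.389 RPKM in replicates 1 to 3 of Sox2 WT, and its groups overlapped. In Sox2 KO the goblet sum was at most 3.01% of the surface mucous sum in any library. Clca3, a secreted goblet cell product, was the goblet gene with the highest level and had 3241, 2827 and 1729 RPKM in replicates 1 to 3 of Sox2 KO, against 517, 131 and 1010 RPKM in replicates 1 to 3 of Sox2 WT. Within Sox2 KO, this gene and Zg16 were highest in replicate 1, like the surface genes, while Spink4 and Itln1 were lowest there. In the same libraries, Muc5ac, Tff1 and the other 8 surface genes overlapped between the groups; the difference between the lists was not tested.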

How the data were processed

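The authors deposited RPKM for 39179 genes in a table of 6 libraries, whose columns equal the 6 single-library tables. Per the submitters' processing notes, CASAVA 1.7, STAR and the mouse build mm10 were used; the counter, annotation and strandedness are not given in these sources. From the deposited RPKM, whole reads (tolerance 0.01) were recovered for the 10 genes with the gene length nearest to GENCODE mouse release 21 that made all 6 libraries whole. Counting intervals are not given because the spread between libraries is far larger.

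log2(RPKM + 0.5) was compared, Sox2 KO minus Sox2 WT, by limma (3.58.1, in R 4.3.3) using a variance trend. The 14045 genes averaging at least 0.5 RPKM were tested, keeping the row with the highest mean for each symbol. This scale understates changes of low genes. Adjustment over all genes followed Benjamini and Hochberg, with a threshold of 0.05. The script was tested on simulated data. The 10 genes, the 14 other lists and the tests were chosen with earlier results of these data known. Named from each list were members past the threshold or otherwise up to 4 with the highest mean, from which a few are given here. A total of 19 alternatives was run, 2 of them added after the data were seen.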

Additional observations from a re-analysis of the deposited data

How the results depend on the processing

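Of the 10 surface mucous genes, 0 passed under any of the 19 alternatives, and the 190 log2 fold changes of single genes included 0 past the threshold. The median of the 10 stayed between -0.01 and 0.38 (main value 0.14), and the upper end came from the sex covariate and from male libraries alone. 25 of the 190 lost the sign of the main value. Only Gkn1, Gkn2 and Psca kept a positive sign in every setting run. Equal sums (TPM) and scaling to epithelial genes moved the median of all genes to -0.09 and -0.13.

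Dpcr1 was at -0.020 after median-of-ratios rescaling, -0.12 with equal sums, -0.32 with quantile normalization and -0.15 relative to epithelium. Ctse was at -0.022 with equal sums, -0.16 with quantile normalization and -0.051 relative to epithelium. Vsig1 was at -0.0049 with equal sums and -0.034 relative to epithelium. Tff1 was at 0 with quantile normalization, which keeps only ranks, since it ranked first in 2 libraries and second in 1 library of each group. Anxa10 was at 0.22 with sex as a covariate and in male libraries alone, where Sox2 WT replicate 1 is assumed to vary like the Sox2 KO libraries. The cause of these changes was not tested.

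Leaving out 1 library gave ranges of -0.27 to 0.35 for Dpcr1, -0.053 to 0.30 for Ctse, -0.014 to 0.32 for Vsig1, -0.29 to 0.22 for Anxa10, -0.037 to 0.66 for Capn8 and -0.54 to 0.13 for Muc5ac. For the others they were 0.028 to 0.40 for Tff1, 0.071 to 0.49 for Gkn1, 0.094 to 0.55 for Gkn2 and 0.072 to 0.47 for Psca. All 10 genes were positive without Sox2 KO replicate 3 or without Sox2 WT replicate 3, and 5 were without Sox2 KO replicate 1 or without Sox2 WT replicate 2.

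The count of genes past the threshold, 4, became 7 with equal sums, 35 relative to epithelium, 1 with the sex covariate and 0 in male libraries alone, where limma gave 583 at an unadjusted p under 0.05 and Sox2 was at -3.82 (adjusted p = 0.154), a fit with fewer samples. It ranged from 1 to 8 when 1 library was left out. With the replicate number as a block, 1 gene passed. The same-numbered libraries did not deviate together (correlations 0.0088, 0.097 and -0.074), so the numbers were not taken to pair them.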
